A study of Homo sapiens with 16 samples.

Results

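The replacement histone genes described here are the 9 genes H1-10, H2AZ1, H2AZ2, H3-3A, H3-3B, H2AX, H2AJ, MACROH2A1 and MACROH2A2, taken by gene symbol from the 58302 gene identifiers counted in each library. They were measured in HEK293, an established human line of embryonic kidney origin, after silencing of Gemin5, an RNA-binding protein of the complex that assembles spliceosomal ribonucleoproteins. RNA from cytoplasmic lysates (Input) and from the pooled heavy fractions of sucrose gradients (Polysome) was sequenced in 4 groups of 4 libraries each: Input Ctrl, Input siRNAG5, Polysome Ctrl and Polysome siRNAG5. The siRNAG5 cells had received 100 nM of 1 siRNA against Gemin5. The sample labels give the Ctrl cells as untreated, whereas the protocol and the methods name a control siRNA, so the Ctrl treatment is uncertain. All cells were of 1 line, received cycloheximide before lysis, and gave libraries selected for polyadenylated RNA.

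Most histone proteins are made in S phase from replication-dependent genes, whose mRNAs carry no poly(A) tail and end in a conserved stem-loop. Replacement histones are made throughout the cell cycle from genes outside the large histone clusters, mostly with introns and polyadenylated mRNAs, and chaperones exchange them into chromatin independently of DNA replication. H3.3, encoded by H3-3A and H3-3B, is laid down in active genes and at telomeric and pericentric repeats. H2A.Z, from H2AZ1 and H2AZ2, flanks the start sites of genes. H2AX is phosphorylated around DNA breaks, H2A.J accumulates in senescent cells, macroH2A carries a large domain fused to a histone fold and is enriched on the inactive X chromosome, and H1-10 encodes the linker histone H1.X.

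In the annotation (GENCODE v44, GRCh38) the 9 genes lie on 9 different chromosomes. H3-3A is at chr1:226061851-226072019 on the plus strand, H3-3B at chr17:75776434-75785893 on the minus strand, H2AZ1 at chr4:99948086-99950355 on the minus strand and H2AZ2 at chr7:44826791-44848087 on the minus strand. H2AX is at chr11:119093874-119095465 on the minus strand, H2AJ at chr12:14774405-14778002 on the plus strand and H1-10 at chr3:129314771-129316286 on the minus strand. MACROH2A1 is at chr5:135334381-135399914 on the minus strand and MACROH2A2 at chr10:70052544-70112282 on the plus strand. The canonical transcripts of H1-10, H2AX and H2AJ are a single exon, those of H3-3A and H3-3B have 4 exons, those of H2AZ1 and H2AZ2 have 5, and those of both macroH2A genes have 9.

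H3-3A and H3-3B encode the same 136 residues from coding sequences that differ at 88 of 411 bases, which is why reads from one gene can be told from reads of the other. Their first 90 coding bases (GRCh38, chr1:226064352-226064441 on the plus strand and chr17:75779085-75779174 on the minus strand) are shown with the 21 bases that differ in capitals.
H3-3A: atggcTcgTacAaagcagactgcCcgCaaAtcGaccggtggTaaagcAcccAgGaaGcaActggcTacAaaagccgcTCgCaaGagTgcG
H3-3B: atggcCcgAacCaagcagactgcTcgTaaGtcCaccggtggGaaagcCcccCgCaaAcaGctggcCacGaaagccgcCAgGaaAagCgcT

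H2AZ1 and H2AZ2 differ at 76 of 387 coding bases and at 3 of 128 residues. Their first 90 coding bases, joined over exons within chr4:99949378-99950170 and chr7:44841004-44847971 on the minus strands, differ at the 19 bases in capitals.
H2AZ1: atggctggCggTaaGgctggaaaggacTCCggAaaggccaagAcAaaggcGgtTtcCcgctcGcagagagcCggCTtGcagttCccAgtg
H2AZ2: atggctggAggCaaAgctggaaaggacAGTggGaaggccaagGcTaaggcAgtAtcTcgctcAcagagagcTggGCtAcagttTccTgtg

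MACROH2A1 and MACROH2A2 shared 67.7% of 372 residues, and H2AX and H2AJ shared 91.5% of the 129 residues aligned. H3.3 differed at 5 of 136 residues from the replication-dependent H3 encoded by H3C1.

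H2AX was the only 1 of the 9 genes with the letters of the histone stem-loop after the stop codon. It is known to give both a short mRNA ending at the stem-loop and a longer polyadenylated mRNA, and the annotated canonical transcript runs 1024 bases beyond the stem-loop, which starts 49 bases after the stop codon. The site is shown (chr11:119094892-119094919, minus strand, GRCh38) because it links this gene to the replication-dependent group, with the matched letters in capitals.
H2AX: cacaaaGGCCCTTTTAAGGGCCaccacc
The letters searched were GGCNCTTTTNAGNGCC on the mRNA strand, with arms of 6 bases around a loop of 4. The last base of the loop was allowed to be any base after a search with C there had matched 0 of the 9 genes. This form was found after the stop codon of 65 of 19708 canonical protein-coding transcripts (0.33%), among them 60 of 64 replication-dependent and 3 of 17 other variant histone genes.

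The 16 libraries held between 11145324 and 24511299 reads on genes. Levels are given in CPM, the reads of a gene scaled to the library's total after TMM normalization over all libraries. Each of the 9 genes had between 416 and 53459 reads in every library and passed the filter on low counts in every comparison. GEMIN5, which checks the silencing, had 15.9 to 20.7 CPM in the Input Ctrl and 6.22 to 7.46 CPM in the Input siRNAG5 libraries, and 5.5 to 9.28 against 2.1 to 3.08 CPM in Polysome, so the groups did not overlap in either fraction. Of the kidney line's markers, KRT18 (86.1 to 196 CPM), KRT8 (27.7 to 92.7 CPM) and LIN28B (4.36 to 55 CPM) were found in all libraries and PAX2 was low (0.349 to 2.06 CPM). Reads of 15 liver genes summed to 80.8 to 167 CPM in all Polysome Ctrl libraries, to 151 and 131 CPM in Input Ctrl 3 and 4, and to at most 2.69 CPM in the other 10. Polysome Ctrl 1, siRNAG5 1 and siRNAG5 4 lay at 35.3 to 38.5 on the third principal component, which held 8.26% of the variance, and the other 13 libraries at -26.3 to 4.95. The share of reads aligned to several places was 4.88 to 6.04% in Input and 21.2 to 42.4% in Polysome. The part of each of these in the results below was not tested, but where leaving out the libraries that stood apart, or Input Ctrl 3 and 4, changed a call or a pass of the adjusted p, both values are given. In Polysome every Ctrl library held liver reads and the siRNAG5 libraries at most 0.876 CPM. Liver reads and silencing therefore cannot be told apart in that fraction, and no choice of libraries left out separates them.

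H2AZ1 had the highest level of the 9 genes. Per kilobase of all annotated exons its level in Input Ctrl was 861 ± 60.3 CPM per kilobase (SD, n = 4), followed by H1-10 (155 ± 11), H3-3A (144 ± 9.68), H3-3B (115 ± 6.02), H2AX (93.9 ± 8.71), H2AZ2 (47.6 ± 1.65), MACROH2A1 (16.7 ± 0.349), H2AJ (12.7 ± 0.196) and MACROH2A2 (8.21 ± 0.166). In this order the ranges of the libraries overlapped only between the neighbours H1-10 and H3-3A. The order rested on the length used. Per kilobase of the canonical transcript H2AZ1 still came first, at 2257 ± 158 CPM per kilobase, but H3-3A (514 ± 34.6) and H3-3B (260 ± 13.7) moved ahead of H1-10, and MACROH2A1 (148.5 ± 3.1) moved ahead of H2AZ2 (110.2 ± 3.82) and H2AX. The annotated exons of MACROH2A1 span 17013 bases and its canonical transcript 1917, and those of H2AJ 3332 and 620.

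**Figure D1:**
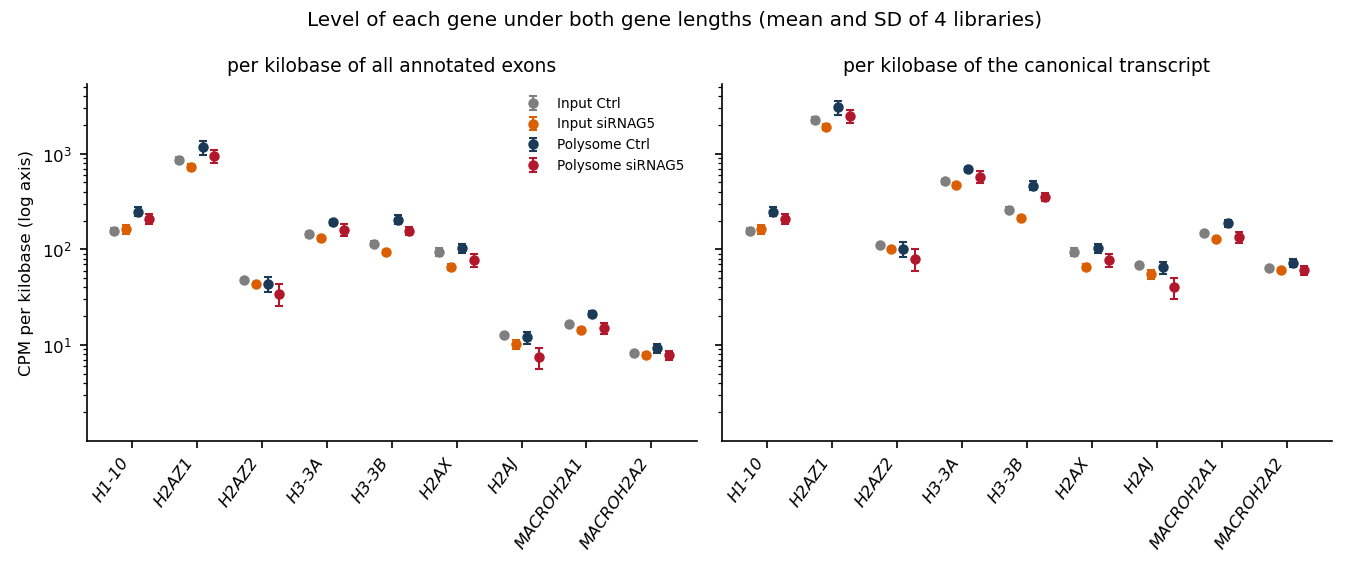
Level of each of the 9 genes in CPM per kilobase, on a log axis, in the 4 groups (point, mean; whiskers, SD of 4 libraries), with the gene length taken as all annotated exons (left) or as the canonical transcript (right). H2AZ1 is highest in both panels, at 861 and 2257 CPM per kilobase in Input Ctrl, while the places of H3-3A, H3-3B and MACROH2A1 differ between the panels.

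In siRNAG5 cells the order per kilobase of exons in Input was the same as in Ctrl. In Polysome Ctrl, H3-3B (205 ± 22.7 CPM per kilobase) stood between H1-10 (248 ± 25.9) and H3-3A (193 ± 11.9), and its range overlapped both. In Polysome siRNAG5 the lowest places were taken by MACROH2A2 (7.78 ± 0.839) and H2AJ (7.47 ± 1.89), whose ranges also overlapped.

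The first question was whether Gemin5 silencing changed these mRNAs in Input. Calling a gene took both a log2 FC of more than 0.5 in size and an adjusted p (edgeR quasi-likelihood test, Benjamini-Hochberg over all 14134 genes tested) of less than 0.05. H2AX was called lower and no other replacement histone gene was called in either direction, where 6.02% of all genes tested were called lower and 10.5% higher. By the adjusted p alone, 5 of the 9 genes were lower and none higher, where 19.1% of all genes tested were lower. For 6 of the 9 genes the highest siRNAG5 library was lower than the lowest Ctrl library, which held for 19.1% of all genes tested. The log2 FC was below 0 for 8 of the 9, with 46.5% of all genes tested below 0, and its median was -0.20 against 0.04 over all genes tested. CPM are reads scaled to library totals multiplied by TMM factors, which were 0.741 to 0.785 in Input Ctrl and 0.805 to 0.852 in Input siRNAG5. Each change is therefore relative to the other mRNAs and rests on that scaling. In bulk RNA fewer cells of a type and less RNA per cell cannot be told apart.

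H2AX, the variant phosphorylated at DNA breaks, had 134, 166, 144 and 154 CPM in the Input Ctrl libraries and 112, 92.5, 108 and 104 CPM in the siRNAG5 libraries. The groups did not overlap, and the smallest gap was between Ctrl 1 and siRNAG5 1. H2AX fell by 0.51 on the log2 scale (SE 0.07, edgeR adjusted p = 2.984e-06), a 1.42-fold lower level. This size was close to the limit of the call. Without Input Ctrl 2 or without Input siRNAG5 2 the log2 FC was -0.45 in both cases, and H2AX then passed the adjusted p alone (4.111e-05 and 4.922e-05 in edgeR), so that no gene of the 9 was called. With no filter on low counts it was -0.49. Without Input Ctrl 3 and 4, which held the liver reads, it was -0.52 (edgeR adjusted p = 0.0001386).

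H2AJ, the other H2A variant gene with a single exon in its canonical transcript, had 41.4, 42.8, 42.6 and 42.6 CPM in Input Ctrl and 35.8, 35.8, 36.7 and 28.4 CPM in Input siRNAG5. The groups did not overlap, and siRNAG5 4 was the lowest library. Its log2 FC was -0.30 (SE 0.08, edgeR adjusted p = 0.006), which passed the adjusted p but not the limit on the log2 FC. Without Input Ctrl 3 and 4 the edgeR adjusted p was 0.0501.

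The H3.3 genes differed in how they passed the test. H3-3B had 703, 757, 679.9 and 677 CPM in Input Ctrl and 566, 572, 606 and 567 CPM in Input siRNAG5, with no overlap. Its log2 FC was -0.27 (SE 0.06, edgeR adjusted p = 0.0006), under the limit on the log2 FC. H3-3A had 522, 600.2, 557 and 523 CPM in Input Ctrl and 522, 472, 523 and 489 CPM in Input siRNAG5. These ranges overlapped, and the log2 FC of -0.12 (95% interval -0.25 to 0.01, edgeR adjusted p = 0.14) did not pass. Of the canonical H3-3A transcript, 97.9% of the bases have a copy of at least 95% identity elsewhere in the genome (5 loci, up to 99.9%), against 62% for H3-3B (1 locus), and reads that aligned to several places were not counted, so the counts of H3-3A in particular are uncertain.

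H2AZ1 had 1944, 2138, 1929.9 and 1807 CPM in Input Ctrl and 1466, 1715, 1711 and 1693 CPM in Input siRNAG5. The groups did not overlap, and siRNAG5 1 was well below the other 3 of its group. The log2 FC was -0.24 (SE 0.06, edgeR adjusted p = 0.0048) and passed the adjusted p alone. H2AZ2 had 333, 347, 334 and 319 CPM in Input Ctrl against 302, 305, 318 and 302 CPM in Input siRNAG5. Here the groups were apart by little more than 1 CPM, and the log2 FC of -0.11 (95% interval -0.23 to 0.01, edgeR adjusted p = 0.16) did not pass. Parts of both transcripts have near copies elsewhere, 32.2% of the bases of H2AZ1 and 28.6% of those of H2AZ2.

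MACROH2A1 had 291, 288, 279 and 281 CPM in Input Ctrl and 242, 238, 257 and 244 CPM in Input siRNAG5, again without overlap. Its log2 FC was -0.20 (SE 0.06, edgeR adjusted p = 0.0079), past the adjusted p alone. MACROH2A2 lay between 120.4 and 126 CPM in Ctrl and between 113 and 125 CPM in siRNAG5, with a log2 FC of -0.04 (95% interval -0.17 to 0.09, edgeR adjusted p = 0.63). H1-10, the linker histone gene, was the only 1 of the 9 with a log2 FC above 0 in Input, 0.08 (95% interval -0.07 to 0.22, edgeR adjusted p = 0.43), from 218 to 252 CPM in Ctrl and 223 to 286 CPM in siRNAG5. Exons of MACROH2A1 and H1-10 overlap antisense genes on the other strand over 27.7% and 22.8% of their bases, and whether counting used the strand is not given in the sources used here.

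**Figure D2:**
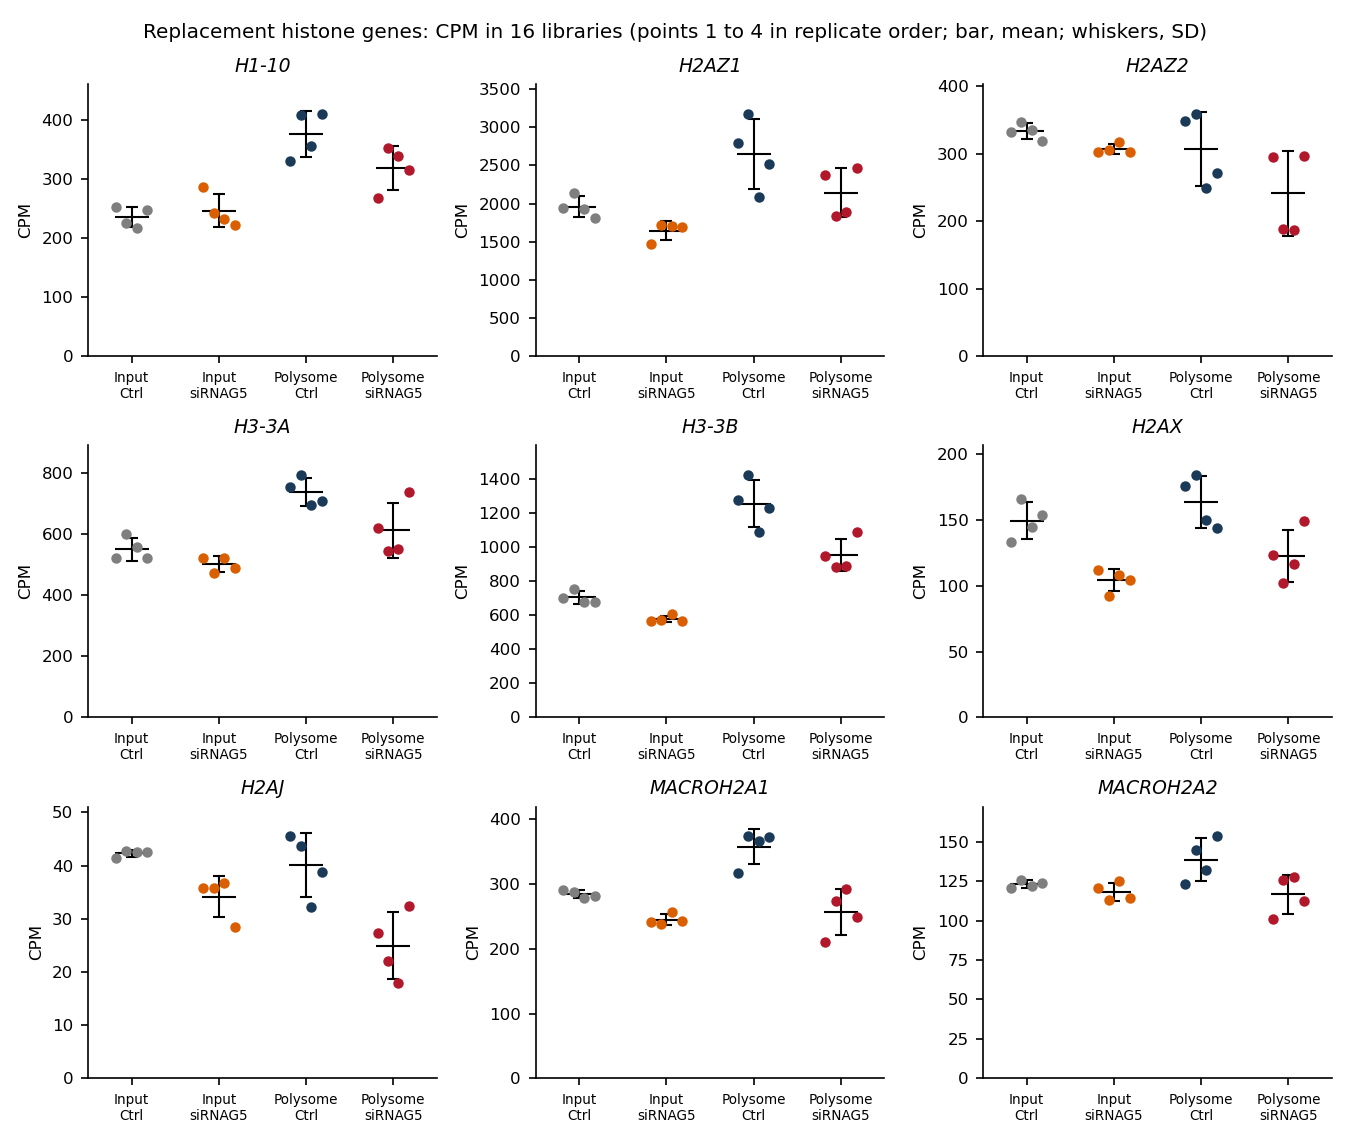
CPM of the 9 genes in each of the 16 libraries, in 4 groups of 4 on axes that start at 0 (points, libraries in replicate order; bar, mean; whiskers, SD). H2AX in Input lies at 134 to 166 CPM in Ctrl and 92.5 to 112 CPM in siRNAG5, and H3-3B lies higher in every Polysome than in every Input library.

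The second question was whether silencing changed the mRNAs in Polysome. None of the 9 genes was called there by edgeR, in which 4.00% of the 14420 genes tested were called lower and 3.95% higher. DESeq2 called 1, H2AJ, and called 1101 of the 14420 genes tested lower, against 577 in edgeR. At an unadjusted edgeR p under 0.05, 3 of the 9 were lower (H2AX, H2AJ and MACROH2A1) and none higher, where 13.3% of all genes tested were lower. All 9 had a log2 FC below 0, as did 46.9% of all genes tested, with a median of -0.31 against 0.03 over all genes tested. The TMM factors over all libraries were 0.975 to 1.25 in Polysome Ctrl and 1.29 to 1.59 in Polysome siRNAG5. A larger factor gives a lower CPM for the same share of reads. The signs of these changes therefore rest on the scaling, and a fit on library totals alone was not made. The siRNAG5 libraries lay wholly below the Ctrl libraries for 2 of the 9, H3-3B and MACROH2A1, which held for 10.0% of all genes tested. Spread was wider than in Input, with standard errors of 0.14 to 0.21 on the log2 scale against 0.06 to 0.08.

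H2AJ had 45.6, 43.7, 32.1 and 38.8 CPM in Polysome Ctrl and 27.3, 22.1, 17.9 and 32.4 CPM in Polysome siRNAG5. The groups overlapped by 1 library on each side, Ctrl 3 and siRNAG5 4. The log2 FC was -0.65 (SE 0.19, 95% interval -1.07 to -0.23), and the edgeR adjusted p of 0.057 missed the threshold. DESeq2 called it lower (log2 FC -0.68, adjusted p = 0.022), as did edgeR without a filter on low counts (adjusted p = 0.034), with all 16 libraries in one fit (0.0036), with 1 surrogate variable (0.00018) and without siRNAG5 4 (0.03). Over all genes tested these fits called 1101, 941 (of 27384), 1520, 1399 and 836 lower, in that order, against 577 in the fit that gave 0.057. Over the fits that left out the other 7 libraries in turn the adjusted p stayed above 0.05.

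MACROH2A1 had 317, 375, 366 and 373 CPM in Polysome Ctrl and 211, 274, 292 and 249.9 CPM in Polysome siRNAG5, without overlap. Its log2 FC of -0.44 (SE 0.15, edgeR adjusted p = 0.092) did not pass. MACROH2A2 had 123, 145, 132 and 154 CPM against 101, 126, 128 and 112 CPM, overlapping ranges with a log2 FC of -0.20 (95% interval -0.50 to 0.09, edgeR adjusted p = 0.36). In both macroH2A genes library 1 was the lowest of its group.

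H3-3B had 1278, 1426, 1088 and 1229.9 CPM in Polysome Ctrl and 945, 883, 892 and 1086 CPM in Polysome siRNAG5. The highest siRNAG5 library was just below the lowest Ctrl library, and the log2 FC was -0.36 (95% interval -0.73 to 0.01, edgeR adjusted p = 0.19). H3-3B passed the adjusted p alone with DESeq2 (0.046) and, in edgeR, with all 16 libraries in one fit (0.017) or 1 surrogate variable (0.048). With the other settings, and with each library left out, its adjusted p stayed above 0.05. H3-3A had 755, 794, 694 and 709 CPM against 619, 543, 551 and 737 CPM. Its ranges overlapped through siRNAG5 4 alone, and the log2 FC was -0.23 (95% interval -0.59 to 0.13, edgeR adjusted p = 0.39).

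H2AX had 176, 184, 150.2 and 144 CPM in Polysome Ctrl and 123, 102, 117 and 149 CPM in Polysome siRNAG5. Here too siRNAG5 4 alone reached into the Ctrl range. The log2 FC was -0.38 (95% interval -0.72 to -0.03, edgeR adjusted p = 0.15), so the decrease of H2AX seen in Input was not called in Polysome. H2AX passed the edgeR adjusted p alone with all 16 libraries in one fit (0.02) or 1 surrogate variable (0.018), but not with DESeq2 (0.089). With the other settings, and with each library left out, its adjusted p stayed above 0.05. H2AZ1 had 2795, 3176.5, 2091 and 2517 CPM against 2378, 1842, 1887 and 2465 CPM, with a log2 FC of -0.26 (95% interval -0.72 to 0.19, edgeR adjusted p = 0.44). H2AZ2 had 349, 359, 249 and 271 CPM against 294, 188, 186 and 297 CPM, with a log2 FC of -0.31 (95% interval -0.77 to 0.15, edgeR adjusted p = 0.36). H1-10 had 331, 408, 356 and 411 CPM against 267, 352, 339.6 and 315 CPM, with a log2 FC of -0.20 (95% interval -0.53 to 0.14, edgeR adjusted p = 0.43). For these 3 genes the ranges of the groups overlapped.

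**Figure D3:**
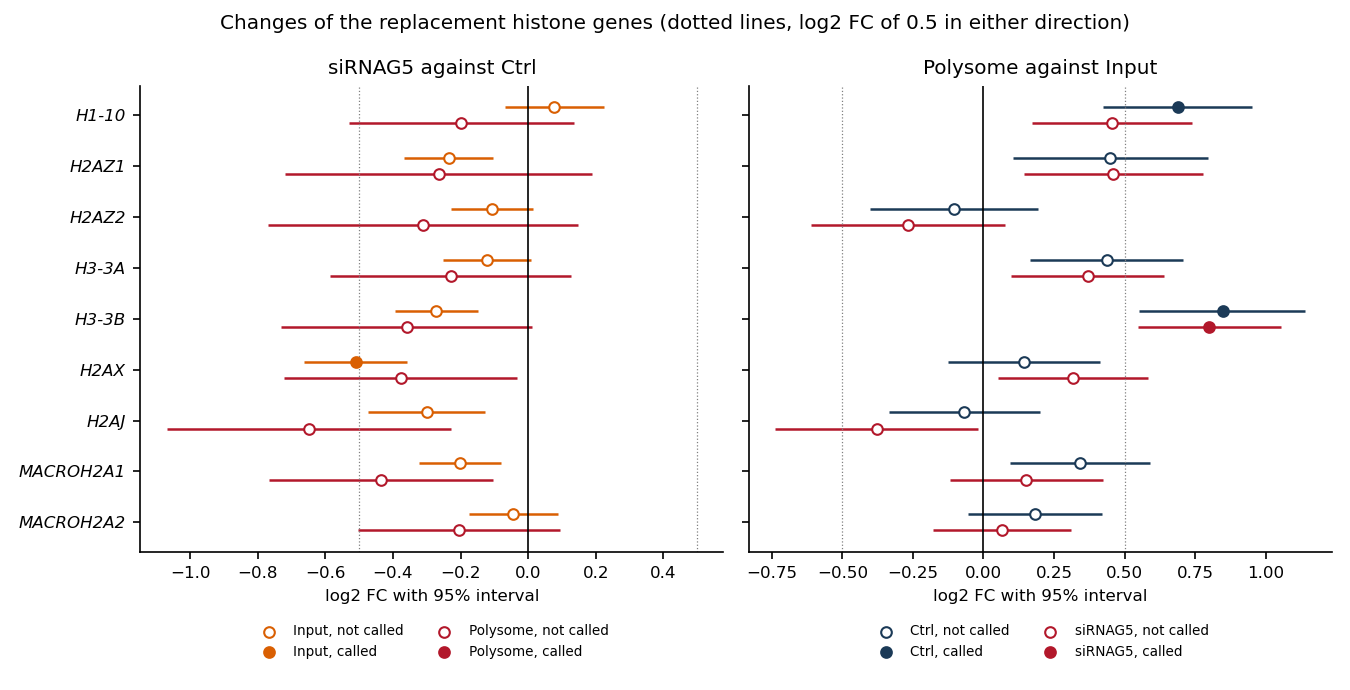
log2 FC with its 95% interval for each of the 9 genes, siRNAG5 against Ctrl in Input and Polysome (left) and Polysome against Input in Ctrl and siRNAG5 (right). Filled points are called genes, H2AX in Input (-0.51) on the left and H3-3B (0.85 and 0.80) and H1-10 (0.69, Ctrl) on the right, and dotted lines mark a log2 FC of 0.5 in either direction.

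The Polysome libraries that stood apart also differed from the others of their groups in the 9 genes. In Polysome siRNAG5, libraries 1 and 4 had 294 to 297 CPM of H2AZ2 and libraries 2 and 3 had 186 to 188 CPM. H2AZ1 (2378 to 2465 against 1842 to 1887 CPM), H2AJ (27.3 to 32.4 against 17.9 to 22.1 CPM), H3-3A, H3-3B and H2AX were likewise higher in libraries 1 and 4. MACROH2A1 (211 to 249.9 against 274 to 292 CPM), MACROH2A2 and H1-10 went the other way. Polysome Ctrl 1 was likewise the lowest of its group for these 3 genes and the highest for H2AJ, but lay within the range of Ctrl 2 to 4 for H2AZ1, H2AZ2, H3-3A, H3-3B and H2AX. This is a description, as the principal components were computed from all genes including these. Without Polysome Ctrl 1, siRNAG5 1 and siRNAG5 4, which leaves 3 against 2 libraries, edgeR called H2AJ (log2 FC -0.88, SE 0.17, adjusted p = 0.0042) and H2AZ2 (-0.59, SE 0.19, adjusted p = 0.041) lower in Polysome, 2 of the 9 genes where 12.1% of all genes tested in that fit were called lower. H2AX then had a log2 FC of -0.49 (edgeR adjusted p = 0.05003).

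An interaction term, fitted over the 16 libraries, compared the effect of silencing between Polysome and Input. None of the 9 genes was called by edgeR or DESeq2, none had an unadjusted p under 0.05 in either, and edgeR called 0.00% of the 14958 genes tested, with 7.28% at an unadjusted p under 0.05. The difference, Polysome minus Input, ran from -0.38 for H2AJ (95% interval -0.83 to 0.08, edgeR adjusted p = 0.75) to 0.11 for H2AX (-0.26 to 0.47, edgeR adjusted p = 0.94). For H2AZ1 it was -0.06 (-0.49 to 0.38) and for H3-3B -0.11 (-0.46 to 0.23). Without the 3 Polysome libraries that stood apart, H2AJ was called, with a difference of -0.61 (SE 0.17, edgeR adjusted p = 0.037), where 4.30% of all genes tested in that fit were called lower. That call too is a description, as the libraries left out stood apart in these same data.

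In Ctrl cells H3-3B and H1-10 were called higher in Polysome than in Input, and none of the 9 was called lower, where 20.8% of the 13666 genes tested were called higher and 18.8% lower. By the adjusted p alone 5 of the 9 were higher, where 24.3% of all genes tested were higher. H3-3B went from 704 ± 36.9 CPM in Input to 1255 ± 139 CPM in Polysome (SD, n = 4), a 1.8-fold higher level (log2 FC 0.85, SE 0.14, edgeR adjusted p = 0.0001239). H1-10 went from 236 ± 16.7 to 377 ± 39.3 CPM, a 1.61-fold higher level (log2 FC 0.69, SE 0.12, edgeR adjusted p = 0.0002992). For both genes all Polysome libraries lay above all Input libraries, and both were called in each fit that left out 1 library.

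H3-3A, encoding the same protein as H3-3B, went from 550.3 ± 37 to 738 ± 45.6 CPM without overlap (log2 FC 0.44, SE 0.13, edgeR adjusted p = 0.01), past the adjusted p alone. H2AZ1 (log2 FC 0.45, SE 0.16, edgeR adjusted p = 0.032) and MACROH2A1 (0.34, SE 0.12, edgeR adjusted p = 0.024) also passed the adjusted p alone. With each library left out in turn both passed the adjusted p in 3 of 8 fits, and in 1 of these, without Polysome Ctrl 3, H2AZ1 was called (log2 FC 0.56, edgeR adjusted p = 0.0017). Without Input Ctrl 3 and 4 the edgeR adjusted p was 0.17 for H3-3A, 0.3 for H2AZ1 and 0.26 for MACROH2A1. In that fit H3-3B (0.016) and H1-10 (0.021) were still called. It left only Input Ctrl 1 and 2, which held few liver reads, against Polysome Ctrl libraries that all held them. Liver reads and fraction therefore cannot be told apart in that fit, and it is no check on the liver reads. With no library left out, the remaining genes had a log2 FC of 0.18 (MACROH2A2, edgeR adjusted p = 0.2), 0.14 (H2AX, 0.37), -0.07 (H2AJ, 0.69) and -0.10 (H2AZ2, 0.57).

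In siRNAG5 cells H3-3B was again called higher in Polysome, from 578 ± 19.1 to 952 ± 93.7 CPM, a 1.74-fold higher level (log2 FC 0.80, SE 0.12, edgeR adjusted p = 0.0001437). It was the only 1 of the 9 called higher, with 23.9% of the 14795 genes tested called higher and 21.2% lower. By the adjusted p alone 5 of the 9 were higher, against 27.0% of all genes tested. H1-10 (log2 FC 0.46, SE 0.13, edgeR adjusted p = 0.011), H2AZ1 (0.46, SE 0.14, edgeR adjusted p = 0.019), H3-3A (0.37, SE 0.12, edgeR adjusted p = 0.026) and H2AX (0.32, SE 0.12, edgeR adjusted p = 0.046) passed the adjusted p alone, and H2AX did so in 1 of the 8 fits that left out 1 library.

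At the lower end in siRNAG5 cells were H2AZ2 (log2 FC -0.27, 95% interval -0.61 to 0.08, edgeR adjusted p = 0.18), all of whose Polysome libraries lay below its Input libraries, and H2AJ (-0.38, 95% interval -0.74 to -0.02, edgeR adjusted p = 0.073). Neither passed. Without Polysome siRNAG5 1 and 4 both were called lower, H2AZ2 with a log2 FC of -0.53 (SE 0.07, edgeR adjusted p = 1.914e-06) and H2AJ with -0.59 (SE 0.12, edgeR adjusted p = 0.0002292), and H1-10 was called higher with 0.67 (edgeR adjusted p = 1.071e-06). In that fit 23.5% of all genes tested were called lower and 29.7% higher. It set Polysome siRNAG5 2 and 3 alone against Input. The libraries left out were those that stood apart in these same data. They held 294 to 297 CPM of H2AZ2, against 186 to 188 CPM in those kept, so the calls of this fit are a description. MACROH2A1 went from a log2 FC of 0.15 (edgeR adjusted p = 0.32) to 0.39 (8.488e-05) and MACROH2A2 from 0.06 (0.65) to 0.28 (0.0033), both then past the adjusted p alone. The Polysome comparisons share libraries with the comparisons of siRNAG5 and Ctrl and are not independent of them.

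Reads of the genes of a pair were also compared within each library, a measure that does not depend on normalization and was chosen after the values above were seen. The ratio of H3-3B to H3-3A reads was 1.22 to 1.35 in Input Ctrl, 1.08 to 1.21 in Input siRNAG5, 1.57 to 1.79 in Polysome Ctrl and 1.47 to 1.63 in Polysome siRNAG5. Both Polysome groups lay above both Input groups, and Input siRNAG5 lay below Input Ctrl. Over the 12 comparisons made (3 pairs, 4 contrasts) a two-sided exact permutation test of 4 against 4 libraries cannot give a p under 0.0286, and ratios without overlap reached that p (0.0381 after Benjamini-Hochberg adjustment). In Polysome the ratio of H3-3B to H3-3A overlapped between siRNAG5 and Ctrl (exact permutation p = 0.0857, adjusted 0.0935).

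H2AZ1 gave 5.66 to 6.16 times as many reads as H2AZ2 in Input Ctrl, 4.85 to 5.63 times in Input siRNAG5, 8.01 to 9.29 times in Polysome Ctrl and 8.08 to 10.1 times in Polysome siRNAG5. Polysome was above Input without overlap in both treatments (exact permutation p = 0.0286, adjusted 0.0381), and silencing went with a lower ratio in Input by the same test but not in Polysome (exact permutation p = 0.543). MACROH2A1 gave 2.26 to 2.42 times as many reads as MACROH2A2 in Input Ctrl and 2.01 to 2.13 times in Input siRNAG5, and 2.42 to 2.77 against 2.09 to 2.29 times in Polysome. It was the only pair of the 3 whose ratio was lower in siRNAG5 without overlap in both fractions (exact permutation p = 0.0286, adjusted 0.0381, in each).

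**Figure D4:**
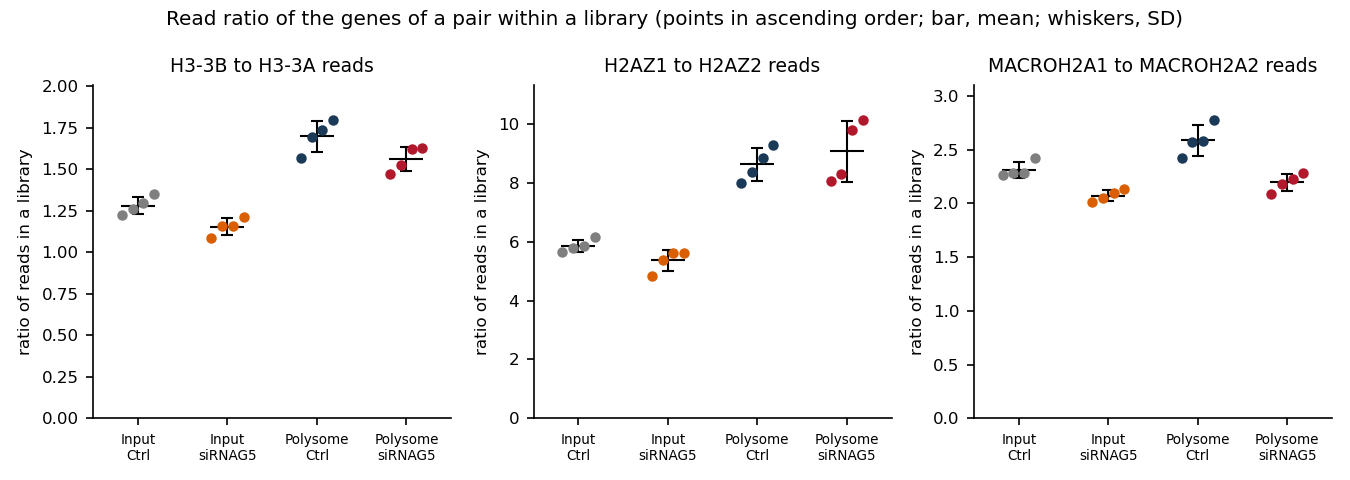
Ratio of the reads of both genes of a pair within each library, in 4 groups of 4 libraries (points in ascending order; bar, mean; whiskers, SD; axes from 0). The H2AZ1 to H2AZ2 ratio is 4.85 to 6.16 in Input and 8.01 to 10.1 in Polysome, and the MACROH2A1 to MACROH2A2 ratio is lower in siRNAG5 in both fractions.

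Beside the 9 genes, of 64 replication-dependent histone genes 31 were tested in Input, of which 8 were called lower and none higher (median log2 FC -0.36), and 36 in Polysome, of which 9 were called lower and none higher (median -0.83), where 6.02% and 4.00% of all genes tested were called lower. They were read here from polyadenylated RNA, mostly at low counts. Some passed the filter on low counts through the higher of the groups compared, which favours a change away from that group. Their counts and medians, here and between fractions, are therefore a description. H3C12 had the largest decrease in Input (1.24 ± 0.347 to 0.215 ± 0.0231 CPM) and H2AC4 in Polysome (1.22 ± 0.529 to 0.376 ± 0.0913 CPM). Both failed the filter in the comparison of the siRNAG5 groups and were tested here through their higher Ctrl libraries, so a decrease was favoured beforehand.

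**Figure D5:**
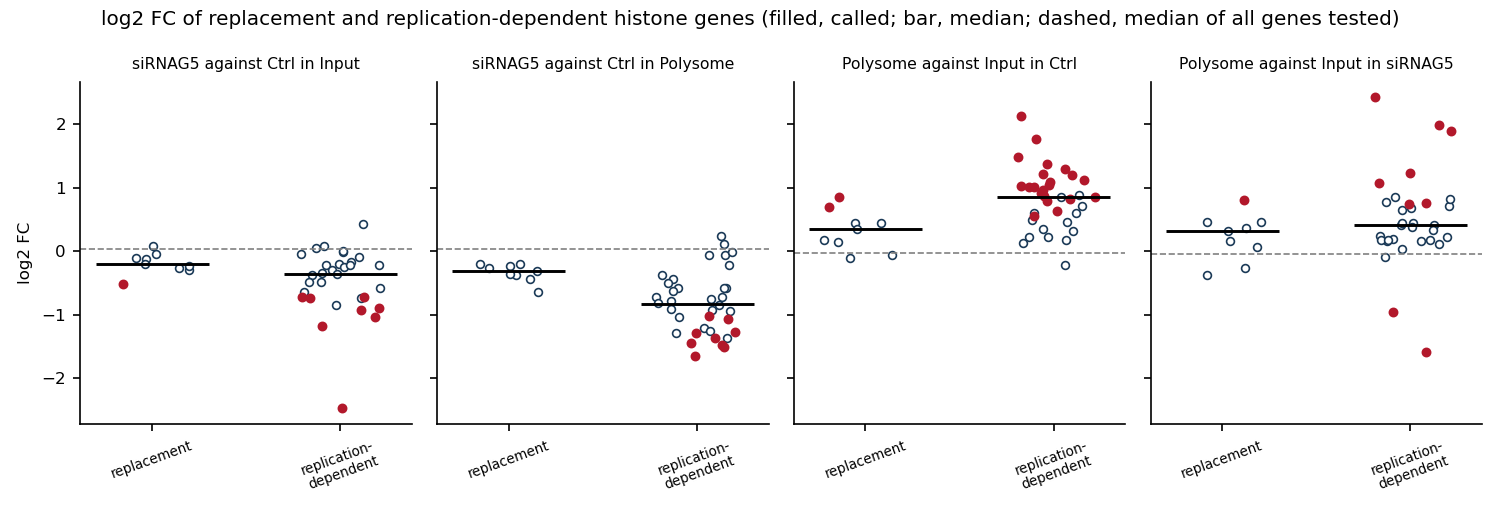
log2 FC of the replacement and the replication-dependent histone genes tested in 4 comparisons (points, genes; filled, called; bar, median of the list; dashed line, median of all genes tested). For siRNAG5 against Ctrl the medians of the replacement genes are -0.20 and -0.31 and those of the replication-dependent genes -0.36 and -0.83, in Input and Polysome.

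In Polysome against Input, 21 of 35 replication-dependent genes tested were called higher and none lower in Ctrl (median log2 FC 0.85), where 20.8% of all genes tested were called higher. In siRNAG5 7 of 32 were called higher and 2 lower (median 0.41), where the shares of all genes tested were 23.9% and 21.2%. The replacement genes had medians of 0.34 and 0.32, and all genes tested -0.03 and -0.04.

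The factors that place or read these histones were mostly not called by silencing. None of the 7 H3.3 deposition genes (HIRA, UBN1, UBN2, CABIN1, ASF1A, DAXX, ATRX) was called in Input (median log2 FC 0.25) or Polysome (-0.01), and none of the H2A.Z exchange genes was, of 10 tested in Input (median -0.06) and 11 in Polysome (0.16). Among the 6 genes for kinases and readers of H2AX, 3 were called higher in Input, where 10.5% of all genes tested were, namely the kinase genes ATM (log2 FC 0.72, edgeR adjusted p = 0.0007753) and PRKDC (0.71, edgeR adjusted p = 1.771e-07) and TP53BP1 (0.64, edgeR adjusted p = 2.152e-05), whose product binds chromatin at breaks. None of the 6 was called in Polysome (median -0.15). The 7 general chaperone genes, such as NAP1L1 and NASP, held no called gene in either fraction (medians -0.13 and -0.22).

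Between Polysome and Input, 20.8% of all genes tested were called higher and 18.8% lower in Ctrl, and 23.9% and 21.2% in siRNAG5, beside which the counts of these short lists stand as a description. Of the H3.3 deposition genes 3 of 7 were called higher in Ctrl and 4 of 7 in siRNAG5 and none lower, led by UBN1 (log2 FC 2.76 and 2.58), a subunit of the HIRA complex. Of the general chaperone genes 3 of 7 were called lower in Ctrl and 4 of 7 in siRNAG5, led by NASP, which binds free H3 and H4 (log2 FC -1.12 and -1.39). Of the genes for H2AX kinases and readers 3 of 6 were called lower in Ctrl and 4 lower and 1 higher in siRNAG5, led by PRKDC (log2 FC -1.63 and -2.13). Of the H2A.Z exchange genes 3 of 10 were called lower in Ctrl, and 3 lower and 2 higher of 11 in siRNAG5. The latter 2 include SRCAP (log2 FC 2.93, from 0.151 ± 0.102 to 1.17 ± 0.425 CPM). SRCAP was near the floor in Input and passed the filter on low counts through its Polysome libraries. A higher level was thus the only call open to it, and no conclusion is drawn from it.

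Across the 16 libraries, which fall into Input and Polysome, the 9 genes did not follow one pattern. Pearson's r of the log2 CPM was 0.94 between H3-3A and H3-3B, 0.90 between MACROH2A1 and MACROH2A2 and 0.89 between H2AZ2 and H2AJ, but 0.25 between H2AZ1 and H2AZ2 and -0.42 between H1-10 and H2AZ2. The genes most like each of them among 14958 were PRR3 (r = 0.99) and YWHAH (0.98) for H3-3B, PITHD1 (0.97) and MED29 (0.96) for H3-3A, COPS8 (0.97) and HMGN3 (0.96) for H2AZ1, LSM2 and CCDC167 (both 0.98) for H2AZ2, ATP5F1D and LSM7 (both 0.98) for H2AJ, MMACHC and GLCE (both 0.95) for H2AX, HNRNPAB (0.97) and EDC3 (0.95) for MACROH2A1, MEPCE (0.93) and REPS1 (0.91) for MACROH2A2, and NXN (0.95) and SMARCD2 (0.94) for H1-10. These values describe the libraries, which share fraction and treatment, and carry no test.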

How the data were processed

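The counts were deposited per library as whole numbers of reads per gene, without normalization. Per the methods and the submitters' processing notes, the authors made stranded poly(A) libraries from 4 independent samples per group, aligned reads to GRCh38 from Ensembl with STAR 2.5.3a and counted them with QoRTs. The files list separately the reads with several alignments (4.88 to 42.4% of a library), outside genes (0.667 to 1.33%) or on overlapping genes (4.14 to 7.41%), and none of these entered the fits.

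Groups came from the sample labels. Genes were named by GENCODE v44 (57532 of 58302 identifiers), a later release than the authors used. In R 4.3.3, the quasi-likelihood test of edgeR 4.0.16 was fitted on the libraries of the groups compared, after TMM normalization and its filterByExpr filter. Principal components and correlations used log2 CPM with a prior count of 2. A call took a log2 FC of more than 0.5 in size with an adjusted p of less than 0.05. The 9 genes and the lists were chosen with earlier results of these data known. Named were the 9 genes and GEMIN5 in every comparison, up to 3 called genes of each other list per direction, and the 2 genes most like each of the 9. Lists held other variant histones, replication-dependent histones, H3.3 deposition, H2A.Z exchange, H2AX kinases and readers, general chaperones, and liver, blood and kidney-line markers. The result of 1 listed gene is not reported here. The 6 blood genes had at most 2.51 CPM in sum in any library. Copies elsewhere in the genome were found with blastn 2.17.0 (alignments of 100 bases or more). Exact permutation tests used scipy 1.17.1, and figures used matplotlib 3.10.9. The fits were also run on simulated data, with changes larger than those of the 9 genes and without sets of libraries that stand apart. That run does not bear on effects of the size reported here.

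Alternatives were all 16 libraries in one fit, RLE size factors, a replicate block, DESeq2 1.42.0 without shrinkage, every gene kept whatever its counts, 1 surrogate variable (sva 3.50.0), no limit on the log2 FC, each library left out, and the canonical transcript as gene length. Leaving out the 3 Polysome libraries that stood apart was also planned, while leaving out Input Ctrl 3 and 4 and the read ratios were chosen after values had been seen.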

Additional observations from a re-analysis of the deposited data

Results flagged for a closer look

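In 6 of the 36 sets of 4 libraries (9 genes, 4 groups) 1 library lay apart from the other 3 by more than Dixon's 95% critical value for the gap over the range, where chance gives about 1 in 20 sets, and the 9 genes share their libraries. H2AZ1 was lowest in Input siRNAG5 1 (1466 CPM, gap over range 0.909). H2AZ2 and H3-3B were highest in Input siRNAG5 3 (318 CPM, 0.831, and 606 CPM, 0.859). H2AJ was lowest in Input siRNAG5 4 (28.4 CPM, 0.893) and in Input Ctrl 1 (41.4 CPM, 0.85), the latter in a group that spans less than 2 CPM. MACROH2A1 was lowest in Polysome Ctrl 1 (317 CPM, 0.853).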

How the results depend on the processing

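In Input, 1 of the 9 genes was called lower (H2AX), 0 without a filter on low counts, 0 to 1 with each library left out (0 without Input Ctrl 2 or siRNAG5 2) and 5 by the adjusted p alone. With all 16 libraries in one fit only H2AX of these 5 passed the adjusted p. In Polysome 0 were called lower, but 1 (H2AJ) with DESeq2, without the filter, with the replicate block (log2 FC -0.67, edgeR adjusted p = 0.037), with all 16 libraries or with 1 surrogate variable, 0 to 1 with each library left out, and 2 without the 3 libraries that stood apart. The difference between fractions had 0 and, without those 3, 1 (H2AJ). Polysome against Input in Ctrl had 2 called higher, 2 to 3 with each library left out and 5 by the adjusted p alone. In siRNAG5 it had 1, 1 to 2 with each library left out, 2 with 1 surrogate variable, 2 without Polysome siRNAG5 1 and 4 (where 2 were also lower, against 0) and 5 by the adjusted p alone. Signs turned in uncalled values near 0. With each library left out H1-10 in Input ran from -0.0032 to 0.12, the difference between fractions from -0.15 to 0.043 for H2AZ1 and from -0.00067 to 0.205 for H2AX, and H2AJ in Polysome against Input in Ctrl from -0.14 to 0.044. The difference was 0.00904 for H2AZ1 without Input Ctrl 3 and 4 and -0.0095 for H2AX without the 3 libraries, and MACROH2A2 in Polysome against Input in siRNAG5 was -0.021 with all 16 libraries. Over all genes, Polysome calls numbered 1146, and 1941 with DESeq2, 1766 without the filter, 2597 with all 16 libraries, 2962 with 1 surrogate variable, 3115 without the 3 libraries, and 189 (without Ctrl 2) to 1523 with each library left out. Calls of a difference numbered 0, and 29, 57, 352 and 765 with DESeq2, without the filter, with 1 surrogate variable and without the 3 libraries, and 9 without Input Ctrl 3 and 4. The cause of these shifts was not tested. Same-numbered libraries did not deviate together in every pair of groups (correlations from -0.53 to 0.483, none of the 6 pairs of groups with all 4 over 0.1), so the numbers were not taken as pairs, and the replicate block gave 1002 Polysome calls. Other changes were in level per kilobase with the canonical length (28 values). Counting of H3-3A and other genes with near copies, the Ctrl treatment and the strand setting limit these values.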
